A study of Drosophila melanogaster with 27 samples.

Results

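Spermatogenesis and sperm tail genes were followed in whole adult males of *Drosophila melanogaster* from sublines that differed in inbreeding depression. The set held 60 genes with known roles in the male germ line, chosen by name. Of these, 49 had a probe set assigned to a single gene on the Affymetrix Drosophila Genome 2.0 array, out of 11982 genes with such a probe set. The symbol matched in 47 cases, and the protamine genes Mst35Ba and Mst35Bb were found by their gene identifier. The remaining 11 members were rye, gdl, Arp53D, whip, walk, S-Lap1, S-Lap3, S-Lap4, loopin-1 and Cyt-c-d, for which no single-gene probe set was found, and cola, which was only on a probe set shared with swif. Where a gene had several probe sets, the one with the highest mean was used. Expression is given as log2 values, so a difference of 1 is a change of 2-fold.

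The inbred lines 5, 7, 12 and 15 each descended from 1 couple of an outbred base population. In each line, the 3 sublines with the highest inbreeding depression that still gave enough flies (+D) and the 3 with the lowest (-D), judged by pupa productivity, were sampled after 8 generations of sib mating. The outbred control was the same base population without sib mating, with 3 samples. Every one of the 27 arrays was made from total RNA of a pool of whole adult males, so each value is an average over a pool, and fewer germ cells cannot be told apart from less RNA per germ cell.

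Sperm development in the fly runs through mitotic divisions, a long primary spermatocyte stage, meiosis and the elongation of a very long tail. Most transcripts of the programme are made in primary spermatocytes, under the control of testis-specific TAF proteins (tTAF) and of the testis meiotic arrest complex (tMAC), and many are stored for translation in spermatids. After meiosis the mitochondria fuse into the nebenkern, the axoneme grows and histones give way to protamines. The testis is one of the organs with the most tissue-specific transcripts in the fly, and in RNA of the whole male they are seen beside those of muscle, gut, fat body and accessory gland.

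The study's arrays differed in ways that touch these genes. Array medians over all probe sets were between 6.32 and 6.54. A list of 16 eggshell and yolk genes, whose transcripts belong to females, stood out by its median in line 7 +D replicate 2, line 5 +D replicate 3 and line 15 +D replicate 2, with a deviation of 3.69, 1.53 and 1.27. The yolk protein gene Yp1 had 12.12, 12.01 and 11.78 in these 3 arrays, but also 12.15 in line 15 -D replicate 1 and 10.75 in line 5 -D replicate 2. It had 9.65 in outbred control replicate 3 and 9.35 in line 12 +D replicate 1, and 8.10 or less in the other arrays. Sample codes fell into 2 ranges, and the 10 arrays with a later code comprised 1 of the 12 +D arrays and 9 of the 12 -D arrays. Several of these 10 carry a joint code with 1 number from each range, and were counted in the later range. Probe sets were kept for testing by their highest value, and 42 members passed. Dhc16F, can, aly, comr, achi, tomb and twe did not, since their highest value was below 7.18, and they are described separately.

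Members were found on all the large chromosome arms. In the release 6 gene order 20 of the 49 lie on 3R, 10 on 2L, 8 on 2R, 8 on 3L and 3 on X. There were 9 pairs of immediate neighbours, among them dj and djl, vis and achi, Mst35Ba and Mst35Bb, and the run of 4 Mst84D genes.

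The first comparison asked whether the programme differed between the most and the least depressed sublines. No member was called. On the mean over the 4 lines, 0 of 42 members passed an adjusted p of 0.05 (limma, Benjamini-Hochberg over all probe sets kept), and 0 did so at an unadjusted p of 0.05, while 15.4% of all probe sets were called. Changes of members ran between -0.12 for topi, a zinc finger subunit of tMAC, and 0.27 for dj. Their median was -0.03, against -0.01 over all probe sets, with 34 members below 0 and 8 above. The share of all probe sets below 0 was not taken, and members can shift together in an array. The median size of the change was 0.04 on the log2 scale for members and 0.08 for all probe sets. For 41 members the 95% interval of the change lay within 0.5 of 0, and for 40 of them within 0.3. The exceptions were dj (-0.23 to 0.77) and vis (-0.39 to 0.33).

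**Figure D1:**
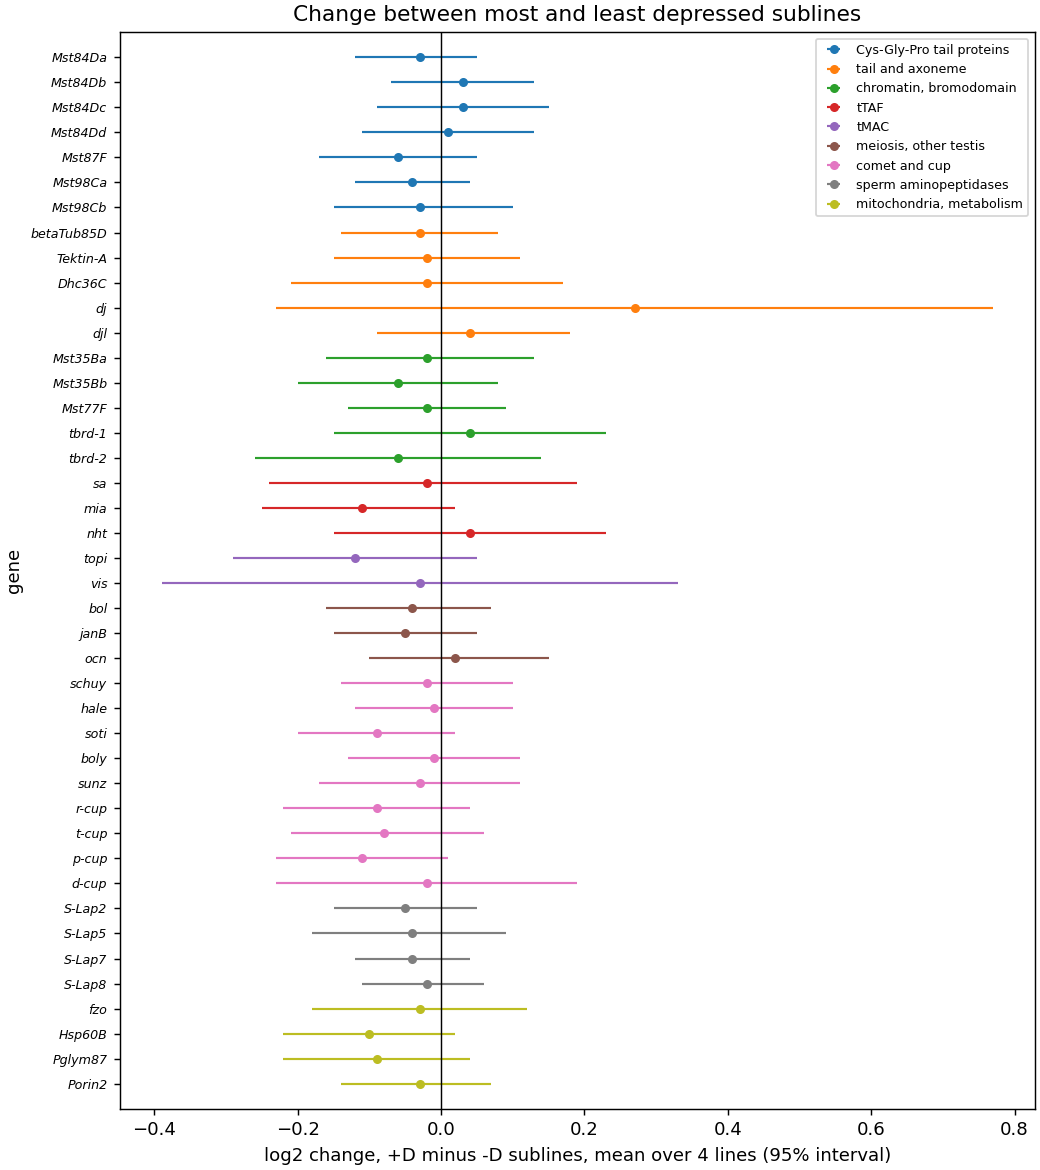
Log2 change of each of the 42 members between +D and -D sublines, averaged over the 4 lines, with its 95% interval, coloured by role. All intervals include 0, and that of dj is the widest.

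The single lines gave the same count. Within line 5, line 7, line 12 and line 15, the number of members called between +D and -D sublines was 0, and at an unadjusted p of 0.05 there was 1, Hsp60B in line 7. Over all probe sets 2.10%, 0.0109%, 4.78% and 1.58% were called in lines 5, 7, 12 and 15. Median changes of members were 0.03, -0.08, -0.04 and -0.05 in that order, beside 0.02, -0.03, -0.02 and 0.00 over all probe sets. In line 7, 35 of the 42 members were lower in +D than in -D sublines, none of them past the threshold. The share of all probe sets that were lower was not taken. The line 7 median of -0.08 became -0.02 without line 7 +D replicate 2, and -0.13 without line 7 -D replicate 3. The test of a line by level interaction (limma F test) called 0 members and 0.0219% of all probe sets, with 0 members at an unadjusted p of 0.05. With only the 6 arrays of a line at issue, intervals were wider, and between 34 and 36 of the 42 lay within 0.5 of 0.

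The 15.4% of probe sets called between levels fell to 4.26% with the range of sample codes as a covariate. The members' count was then 0 and their median -0.03. Among arrays of the first range, just lines 7 and 15 hold both levels, with line 7 -D replicate 3 as the only -D array of line 7. With so few arrays no count is given for that range, and the members' median there was -0.03.

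The 7 Cys-Gly-Pro proteins, structural proteins of the sperm tail, stayed close to their medians. Mst84Da, Mst84Db, Mst84Dc, Mst84Dd, Mst87F, Mst98Ca and Mst98Cb changed by -0.06 to 0.03 between +D and -D sublines over the lines. Their range over the 27 arrays was from 0.41 for Mst98Ca and Mst84Db to 0.68 for Mst84Dd. Mst84Dd had 12.05, 11.84 and 12.04 in line 5 +D against 11.64, 11.82 and 11.86 in line 5 -D, and 11.66, 11.58 and 11.70 in line 7 +D against 11.68, 11.80 and 11.65 in line 7 -D. It had 11.77, 11.60 and 11.72 in line 12 +D against 11.83, 11.59 and 11.78 in line 12 -D, 11.37, 11.59 and 11.97 in line 15 +D against 11.76, 11.60 and 11.82 in line 15 -D, and 11.69, 11.82 and 11.55 in the outbred control. The levels overlapped in every line, least so in line 5, with a change there of 0.21 ± 0.11 (SE, adjusted p = 0.448). Its lowest value came from line 15 +D replicate 1 and its highest from line 5 +D replicate 1.

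Among the tail and axoneme genes betaTub85D, the beta-tubulin of the sperm axoneme and the meiotic spindle, and Tektin-A, a filament protein of axonemal doublets, changed by -0.03 and -0.02. Their ranges over the 27 arrays were 0.66 and 0.51. Dhc36C, an axonemal dynein heavy chain, changed by -0.02 between the levels, as a mean over lines that went both ways. Its +D and -D group means were 7.93 and 7.69 in line 5, and 7.91 and 7.76 in line 15. They were 7.67 and 8.03 in line 7, and 7.87 and 7.97 in line 12.

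The member that varied most was dj (don juan), which encodes a basic protein of the spermatid nucleus and sperm tail. In line 5 it had 9.98, 9.93 and 10.23 in +D sublines against 9.58, 10.03 and 8.74 in -D sublines. In line 12 it had 7.89, 9.49 and 10.53 in +D sublines against 9.84, 8.13 and 8.76 in -D sublines. High values were thus found at both levels of these 2 lines, and the widest spread within a group was in line 12 +D. In line 7 dj had 8.13, 8.40 and 8.66 in +D sublines against 8.66, 8.13 and 8.54 in -D sublines. In line 15 it had 7.87, 8.60 and 8.85 in +D sublines against 8.20, 8.73 and 8.00 in -D sublines, and the outbred control had 7.54, 8.05 and 8.17. The 27 values fell apart at a gap of 0.64, with 8 arrays at 9.49 or more, 5 from line 5 and 3 from line 12, and 19 arrays at 8.85 or less. The next gene on 3R, djl (don juan like), had a range of 0.86 over the 27 arrays, against 2.99 for dj.

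**Figure D2:**
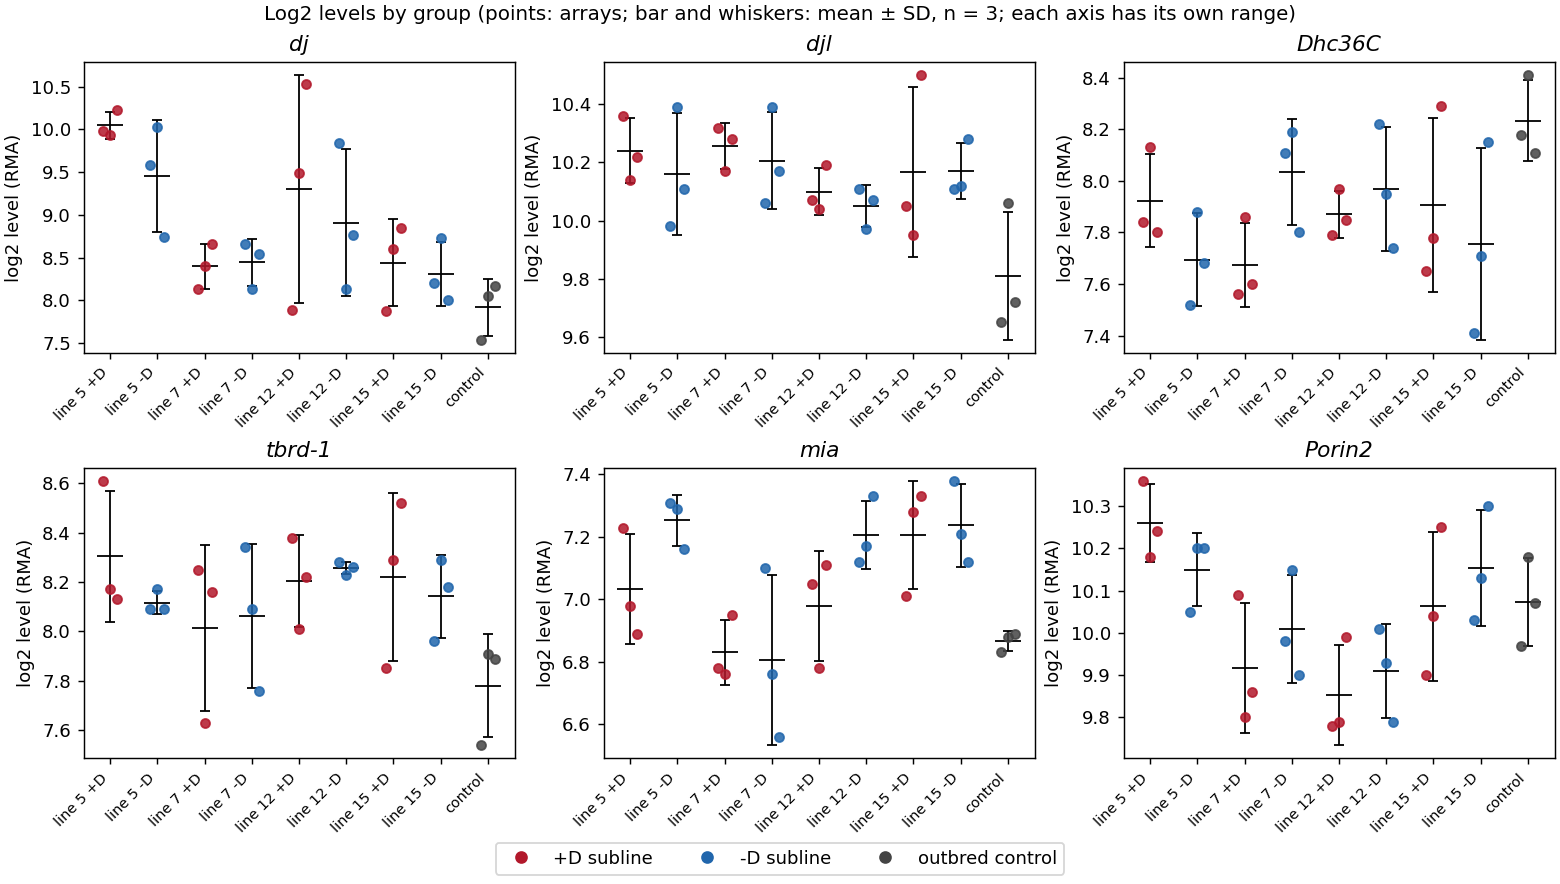
Log2 levels of dj, djl, Dhc36C, tbrd-1, mia and Porin2 in the 9 groups, with +D sublines in red, -D sublines in blue and the outbred control in grey (points are arrays, bars the mean and whiskers the SD, n = 3). dj was at 9.49 or more in 8 arrays of lines 5 and 12 and lowest in the control, and mia was lowest in line 7 and the control.

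Genes of sperm chromatin moved as little between levels. The protamines Mst35Ba and Mst35Bb and the linker histone-like Mst77F, which package the sperm nucleus, changed by -0.02, -0.06 and -0.02. The testis bromodomain genes tbrd-1 and tbrd-2 changed by 0.04 and -0.06. The range of tbrd-1 was 1.07 and that of Mst77F 0.57.

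Regulators of the spermatocyte programme had wider ranges, as had other probe sets of low mean. Range over the 27 arrays was 1.12 for sa, 0.82 for mia and 1.05 for nht among the tTAF genes, and 0.98 for topi and 1.76 for vis among the tMAC genes. Members with a mean below 8 had a median range of 0.94, against 0.97 for all probe sets below 8. Members with a mean of 12 or more had a median range of 0.50, against 0.58 for all probe sets of that level.

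The tTAF gene sa, related to the general TAF8, had 7.96, 7.55 and 7.49 in line 5 +D against 7.62, 7.44 and 7.50 in line 5 -D, and 7.70, 7.29 and 7.78 in line 7 +D against 7.94, 7.77 and 7.45 in line 7 -D. It had 7.70, 7.56 and 7.71 in line 12 +D against 7.94, 8.04 and 7.57 in line 12 -D, 6.92, 7.40 and 7.80 in line 15 +D against 6.94, 7.27 and 7.65 in line 15 -D, and 7.07, 7.27 and 7.38 in the outbred control. Groups overlapped in every line, and the low values were in replicate 1 of both line 15 groups and in the control. For vis, a homeodomain subunit of tMAC, there was 8.45, 7.24 and 6.90 in line 5 +D against 6.69, 7.92 and 7.88 in line 5 -D, and 7.28, 7.19 and 7.44 in line 7 +D against 7.72, 7.62 and 6.81 in line 7 -D. It had 7.68, 7.85 and 7.95 in line 12 +D against 8.03, 7.85 and 7.99 in line 12 -D, 7.10, 8.02 and 8.06 in line 15 +D against 7.45, 7.98 and 7.55 in line 15 -D, and 7.15, 7.44 and 7.05 in the outbred control. Both the highest and the lowest vis value of the series came from line 5, and line 12 was the steadiest. Its change between levels was -0.03 ± 0.17 over the lines (SE, adjusted p = 0.936).

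Comet and cup genes are transcribed after meiosis, and their transcripts gather at the tail end of the spermatid. The 9 that passed (schuy, hale, soti, boly, sunz, r-cup, t-cup, p-cup and d-cup) changed by -0.11 to -0.01 between +D and -D sublines, with a median of -0.03. All 9 were thus slightly lower in +D sublines, none past the threshold. The widest range was that of d-cup, with 7.31, 7.32 and 7.38 in line 5 +D against 6.99, 7.12 and 7.24 in line 5 -D, and 7.17, 6.94 and 6.91 in line 7 +D against 7.19, 7.14 and 7.04 in line 7 -D. It had 7.65, 7.17 and 7.09 in line 12 +D against 7.36, 7.46 and 7.43 in line 12 -D, 6.21, 7.15 and 7.37 in line 15 +D against 6.93, 6.78 and 7.23 in line 15 -D, and 6.66, 7.04 and 6.90 in the outbred control. A single array, line 15 +D replicate 1, held the low end. In line 5 the groups of d-cup did not overlap, with the +D sublines higher by 0.22 ± 0.20 (SE, adjusted p = 0.723).

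Sperm aminopeptidases, among the most abundant proteins of fly sperm, had narrow ranges as well. S-Lap2, S-Lap5, S-Lap7 and S-Lap8 changed by -0.05 to -0.02 between the levels. S-Lap7 had a range of 0.37, the smallest of the 42 members. S-Lap5 had 9.12, 8.84 and 8.89 in line 5 +D against 8.87, 9.05 and 9.03 in line 5 -D, and 8.76, 8.60 and 8.67 in line 7 +D against 8.91, 8.85 and 8.66 in line 7 -D. It had 8.72, 8.90 and 8.73 in line 12 +D against 8.86, 8.76 and 8.66 in line 12 -D, 8.77, 8.85 and 9.23 in line 15 +D against 8.86, 8.83 and 9.29 in line 15 -D, and 8.71, 8.99 and 8.86 in the outbred control. Replicate 3 of both line 15 groups was high, and the levels overlapped in each line.

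Of the mitochondrial and metabolic paralogs of the germ line, fzo (the GTPase of nebenkern fusion), Hsp60B (a chaperonin paralog of the testis), Pglym87 (a phosphoglycerate mutase paralog) and Porin2 (a paralog of the mitochondrial outer membrane channel) changed by -0.03, -0.10, -0.09 and -0.03. Hsp60B had 10.98, 10.79 and 10.90 in line 5 +D against 10.78, 10.81 and 10.93 in line 5 -D, and 10.82, 10.60 and 10.20 in line 7 +D against 10.92, 10.80 and 10.84 in line 7 -D. It had 10.66, 10.63 and 10.77 in line 12 +D against 10.82, 10.74 and 10.69 in line 12 -D, 10.75, 10.72 and 10.94 in line 15 +D against 10.76, 10.75 and 11.12 in line 15 -D, and 10.77, 10.97 and 10.86 in the outbred control. The lowest value belonged to line 7 +D replicate 3, and in line 7 one +D value lay within the -D values. Its change in line 7 was -0.31 ± 0.12 (SE, adjusted p = 0.364).

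The 3 tested genes of meiotic entry and other testis transcripts moved little as well. bol, an RNA-binding protein of the DAZ family that acts at meiotic entry, changed by -0.04, and janB and ocn, neighbouring testis genes, by -0.05 and 0.02. The bol and r-cup genes had 3 probe sets each, and those not used changed by -0.22 and -0.01 for bol and by -0.01 and 0.00 for r-cup, with 0 of these 4 past the threshold in a fit without the filter on low values. In that fit the bol probe set at -0.22 was lower in +D sublines than in the outbred control, with a change of -0.54 (adjusted p = 0.00339), and its change in -D sublines was -0.32 (adjusted p = 0.0580). The bol probe set used had changes of 0.02 and 0.07 (adjusted p = 0.877 and 0.615), so the probe sets of bol disagreed.

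Over the 27 arrays the range of a member had a median of 0.65, against 0.82 for all probe sets kept. For 35 of the 42 members it was under 1, as for 64% of all probe sets. The SD within groups had a median of 0.15 for members and 0.16 for all. Sublines of the same group had a mean variance over the members of 0.0521 ± 0.0270 for +D and 0.0316 ± 0.00496 for -D (SD over 4 lines), and the outbred control had 0.0235. By line it was 0.0368 in +D and 0.0311 in -D sublines of line 5, and for the same levels 0.027 and 0.0285 in line 7. Line 12 had 0.0564 in +D and 0.0279 in -D sublines, and line 15 had 0.0883 and 0.0387. By this mean, line 7 was the only line without a higher value in +D sublines. The median variance over the members was higher in +D than in -D sublines in all 4 lines, with 0.0136 and 0.00863 in line 5, 0.0155 and 0.0124 in line 7, 0.00831 and 0.00686 in line 12, and 0.0706 and 0.0224 in line 15. Mean and median were furthest apart in line 12 +D, the group with the widest spread of dj. For all probe sets the mean variances were between 0.0745 and 0.147 in +D groups and between 0.0453 and 0.0765 in -D groups. In each of the 8 groups the mean variance of the members was below that of all probe sets. The median variance was not, with 0.0706 for members and 0.035 for all probe sets in line 15 +D, 0.0224 and 0.0192 in line 15 -D, and 0.0181 and 0.0138 in the outbred control.

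In some arrays nearly all members were shifted at once, while in others they were split, as in line 12 +D replicate 1 with 24 below and 18 above their median. The deviation of each gene from its median over the 27 arrays was taken, and its median over the 42 members was 0.18 or more from 0 in 6 arrays. Line 15 held 3 of these. In line 15 +D replicate 1 it was -0.21, all 42 members were below their median, and 16 of them had their lowest value of the series there, as did 6.46% of all probe sets. In line 15 +D replicate 3 it was 0.24, with 41 members above and 13 at their highest value, as were 9.5% of all probe sets. Line 15 -D replicate 3 had 0.20, with 39 members above and 8 at their highest, against 5.3% of all probe sets.

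The other 3 arrays were from separate groups. Line 5 +D replicate 1 had 0.18, with 40 members above and 9 at their highest, against 5.85% of all probe sets. Line 7 +D replicate 2, the array with the most eggshell transcripts, had -0.20, with 40 members below. There 6 were at their lowest, against 3.05% of all probe sets. Outbred control replicate 1 had -0.21, also with 40 members below, and 6 at their lowest, against 15% of all probe sets. Over all probe sets kept, the median deviation was between -0.12 and -0.07 in the 3 control arrays. It was between -0.05 and 0.05 in the +D arrays.

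Sublines of one line and level could therefore lie at opposite ends, as in line 15 +D, where replicate 2 had -0.05. Leaving out line 15 +D replicate 1 gave a median +D minus -D change of 0.05 in line 15, and leaving out line 15 +D replicate 3 gave -0.17, with 0 members called in both cases.

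**Figure D3:**
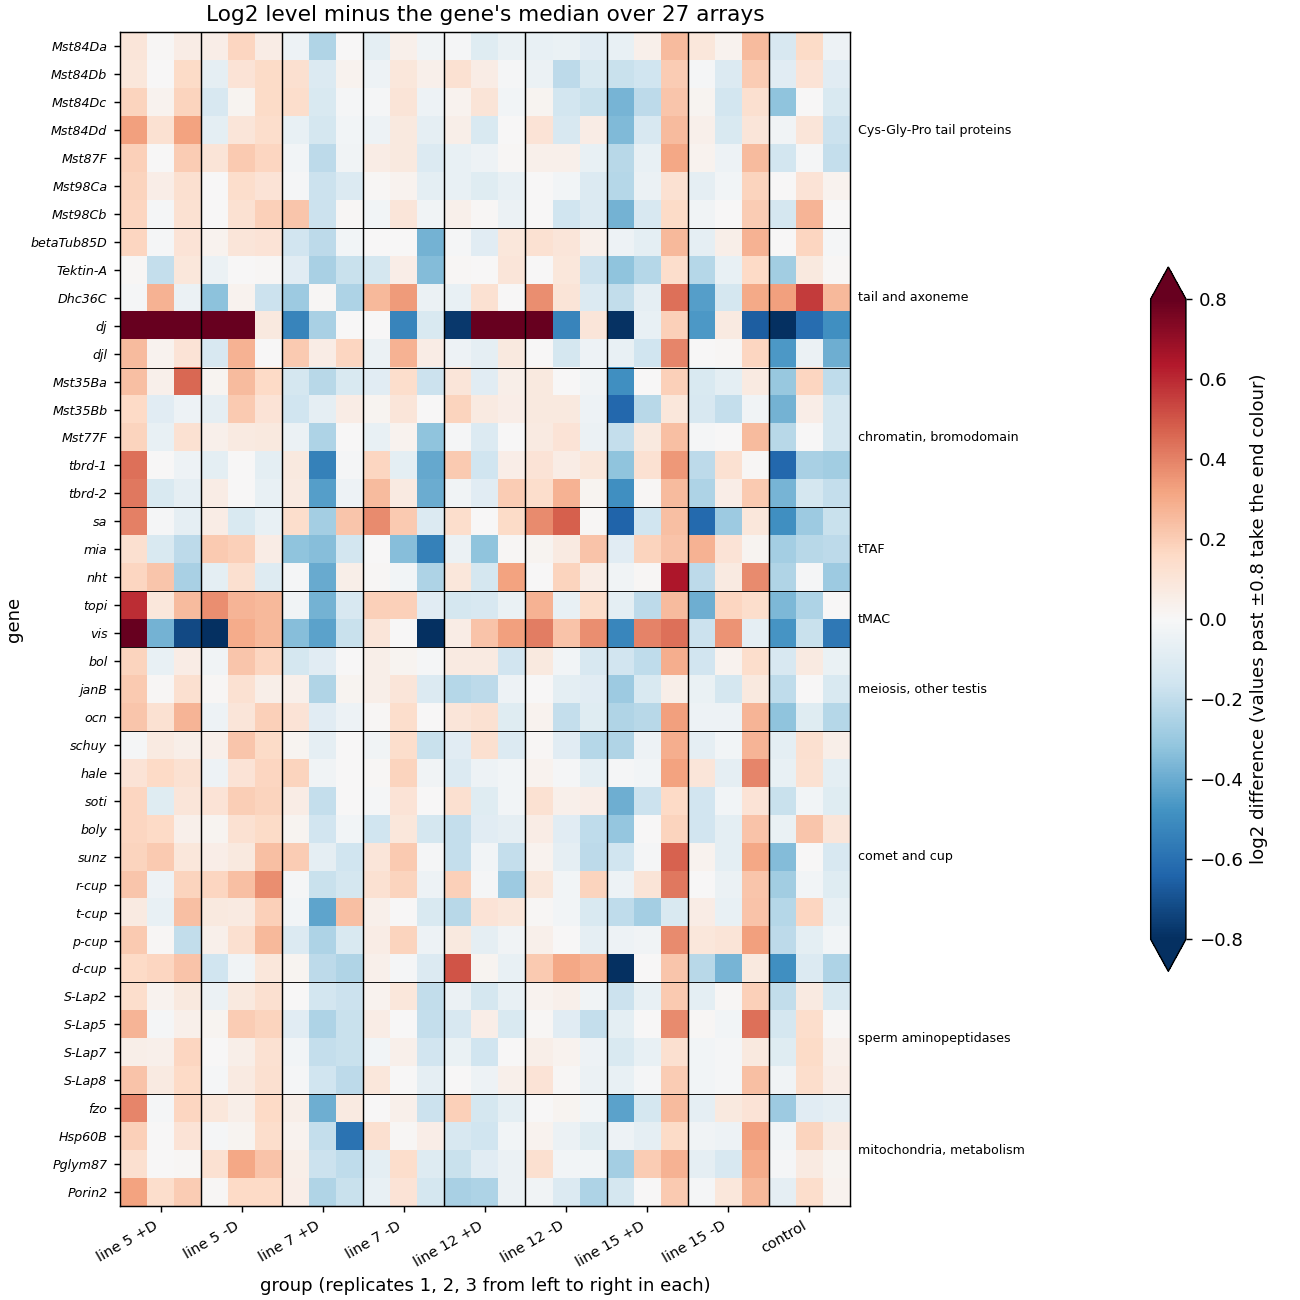
Log2 level of each of the 42 members minus its median over the 27 arrays, with genes in rows by role and arrays in columns by group (red above, blue below the median). Column-wide shifts are seen in line 15 +D replicate 1 (42 members below) and replicate 3 (41 above), and dj stands out in line 5.

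Other lists were read in the same 6 arrays. Genes of the testis outside the set, 37 that passed the filter (testis proteasome paralogs, other axoneme genes and other spermatid genes), shifted the same way in all 6. Their medians were -0.11 and 0.25 in line 15 +D replicates 1 and 3, 0.25 in line 15 -D replicate 3, 0.20 in line 5 +D replicate 1, -0.22 in line 7 +D replicate 2 and -0.27 in outbred control replicate 1. Flight and body muscle genes, 11 of 14 found, had medians of 0.70, -0.47, -0.01, -0.43, 0.41 and 0.96 in the same order, opposite in sign to the members but near 0 in line 15 -D replicate 3. Over the 27 arrays the muscle list was opposite in sign to the members in 16 and the other testis list alike in sign in 21. The 15 accessory gland genes found of 18 were at -0.19, 0.08, 0.07, -0.06, -0.03 and -0.53 in those 6 arrays. The part of these tissues in the shifts was not tested.

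**Figure D4:**
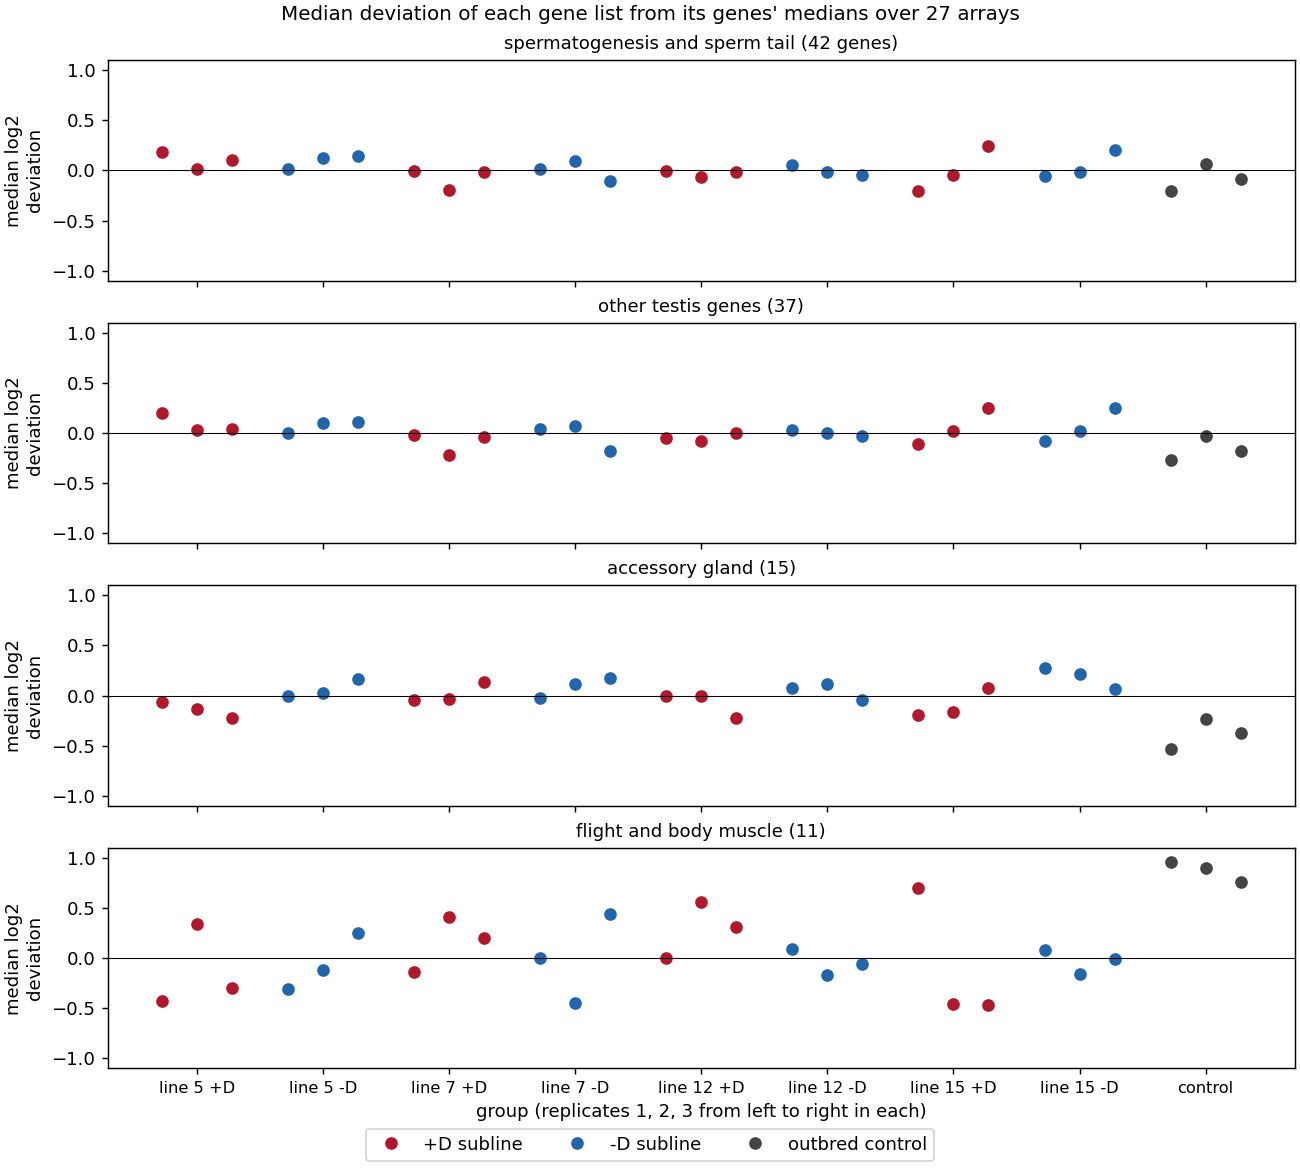
Median log2 deviation of the members, of other testis genes, of accessory gland genes and of muscle genes from their medians over the 27 arrays, one point per array, in 9 groups. The members range from -0.21 to 0.24 and the muscle list is at 0.76 to 0.96 in the 3 control arrays.

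The inbred sublines were next set against the outbred control, +D and -D each as the mean of their 4 groups. These comparisons share the 3 control arrays. In +D sublines 4 of 42 members were higher than in the control, beside 25.9% of all probe sets, and 1 was lower, beside 13.2%. In -D sublines 6 members were higher, beside 30.7% of all probe sets, and 1 was lower, beside 15.1%. None of these counts was high for its share over all probe sets. The median change of members was 0.07 in +D and 0.12 in -D sublines, against 0.10 and 0.12 for all probe sets. After each array was centred on its median, the members' medians were -0.03 and 0.02.

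The neighbours dj and djl on 3R were both higher in +D sublines than in the control. For djl the +D sublines ran between 9.95 and 10.50 with a median of 10.18, and the -D sublines between 9.97 and 10.39 with a median of 10.11, while the outbred control had 9.65, 10.06 and 9.72. In +D sublines 9 of 12 and in -D sublines 10 of 12 were above all controls. The change was 0.38 ± 0.10 in +D (SE, limma adjusted p = 0.00669) and 0.34 ± 0.10 in -D sublines (adjusted p = 0.0121). For dj, the +D sublines ran between 7.87 and 10.53 with a median of 8.75, and 9 of 12 were above all 3 controls, a change of 1.13 ± 0.38 (SE, adjusted p = 0.0236). The -D sublines ran between 8.00 and 10.03 with a median of 8.69, also with 9 of 12 above all controls, and their change was 0.86 ± 0.38 (SE, adjusted p = 0.0695).

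The testis bromodomain gene tbrd-1 ran between 7.63 and 8.61 in +D sublines with a median of 8.19, and between 7.76 and 8.34 in -D sublines with a median of 8.17, against 7.54, 7.91 and 7.89 in the outbred control. Of the sublines, 10 of 12 +D and 11 of 12 -D exceeded every control. It was higher by 0.41 ± 0.14 in +D (SE, adjusted p = 0.0300) and by 0.36 ± 0.14 in -D sublines (adjusted p = 0.0431). ocn ran between 12.32 and 12.89 in +D sublines with a median of 12.67, and between 12.37 and 12.83 in -D sublines with a median of 12.56, against 12.24, 12.46 and 12.33 in the outbred control. Its changes were 0.27 ± 0.10 (SE, adjusted p = 0.0334) and 0.24 ± 0.10 (adjusted p = 0.0445).

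In -D sublines alone topi, mia and r-cup also passed. topi ran between 6.30 and 7.06 in -D sublines with a median of 6.87, against 6.33, 6.44 and 6.69 in the outbred control, a change of 0.33 ± 0.13 (SE, adjusted p = 0.0434). mia, a tTAF gene related to TAF6, ran between 6.56 and 7.38 in -D sublines with a median of 7.17, against 6.83, 6.88 and 6.89, a change of 0.26 ± 0.10 (SE, adjusted p = 0.0456). r-cup, named here after its values were seen, ran between 7.50 and 7.92 in -D sublines with a median of 7.70, against 7.27, 7.53 and 7.45, a change of 0.25 ± 0.10 (SE, adjusted p = 0.0423). Groups overlapped for all 3 genes, and none of them was called between the +D and -D sublines. The control values of topi and mia were all below 7.18, so both passed the filter only through inbred arrays. For topi this was line 5 +D replicate 1 alone (7.28). The other 2 probe sets of r-cup were higher by 0.03 and 0.15 in -D sublines, neither past the threshold in the fit without a filter, in which the probe set used had an adjusted p of 0.0625.

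Dhc36C was lower in the inbred sublines. It ran between 7.56 and 8.29 in +D sublines with a median of 7.82, and between 7.41 and 8.22 in -D sublines with a median of 7.84, against 8.18, 8.41 and 8.11 in the outbred control. Of the sublines, 10 of 12 +D and 8 of 12 -D lay under every control. The change was -0.39 ± 0.14 (SE, adjusted p = 0.0342) and -0.37 ± 0.14 (adjusted p = 0.0388).

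These calls depended on single arrays, most of all on the controls. Without outbred control replicate 1, in which nearly all members were low, 0 members were called against the control in +D or in -D sublines. Without replicate 2 there were 3 in +D and 3 in -D sublines, and without replicate 3 there were 2 in +D and 1 in -D sublines. In +D sublines no call was lost without an inbred array. In -D sublines, of 27 fits with 1 array left out, tbrd-1 was lost in 13, mia in 12, topi in 10, ocn in 9, r-cup and Dhc36C in 8 each and djl in 2. The 3 controls all carry codes of the first range, and among arrays of that range 2 members were called in +D sublines. In -D sublines that range holds only arrays of lines 7 and 15, with line 7 -D replicate 3 alone for line 7, so no count is given. In the controls the muscle list was at 0.96, 0.90 and 0.76 and the accessory gland list at -0.53, -0.23 and -0.37 in replicates 1, 2 and 3, outside the range of the 24 inbred arrays for both. Their part in the differences was not tested.

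The 7 members below the filter were at their lowest group mean in the outbred control in 6 cases, all but Dhc16F. The control held the lowest group mean of 38.6% of the probe sets kept, and the share among probe sets below the filter was not taken. Fitted without a filter, 0 of the 7 were called between +D and -D sublines. Against the control, aly was higher by 0.31 ± 0.10 in +D sublines (SE, adjusted p = 0.0365) and tomb by 0.33 ± 0.12 (adjusted p = 0.0458). In -D sublines aly (0.31 ± 0.10, adjusted p = 0.0286), tomb (0.33 ± 0.12, adjusted p = 0.0436) and comr (0.36 ± 0.11, adjusted p = 0.0174) were higher. For comr in +D sublines the change was 0.30 ± 0.11 (SE, adjusted p = 0.0536). Levels were low, with aly between 3.78 and 4.49, comr between 4.59 and 5.38 and tomb between 5.43 and 6.21. All lie below the lowest array median of 6.32, and the part of background signal was not tested. These genes were not refitted with single controls left out. Of the 7 members, 4 encode subunits of tMAC, and one of these, achi, was not called (adjusted p = 0.358 in +D and 0.264 in -D sublines). Nor was the tMAC gene vis in the fit with the filter (adjusted p = 0.285 in +D and 0.227 in -D sublines). The tMAC gene topi, called in -D sublines with the filter, had an adjusted p of 0.0526 there without it, and djl was then the only one called in -D sublines among the 42 other members. In this fit 23.9% of all probe sets were called in +D and 29.3% in -D sublines, in either direction.

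Among these low probe sets the tTAF gene can, related to TAF5, had the widest range, with 6.43, 6.27 and 5.92 in line 5 +D against 6.14, 6.18 and 5.88 in line 5 -D, and 6.01, 5.96 and 5.43 in line 7 +D against 6.52, 6.16 and 5.76 in line 7 -D. It had 5.65, 5.62 and 5.80 in line 12 +D against 5.82, 5.99 and 5.78 in line 12 -D, 6.05, 6.09 and 6.35 in line 15 +D against 5.57, 5.87 and 6.32 in line 15 -D, and 5.27, 5.84 and 5.73 in the outbred control. The control had the lowest value, and the levels overlapped in every line. twe, the Cdc25 phosphatase that drives meiotic entry, had 5.18, 4.95 and 5.50 in line 5 +D against 4.88, 5.24 and 5.02 in line 5 -D, and 5.08, 4.92 and 4.78 in line 7 +D against 4.96, 5.00 and 4.88 in line 7 -D. It had 4.79, 4.73 and 4.93 in line 12 +D against 5.03, 4.81 and 4.92 in line 12 -D, 4.75, 5.17 and 5.14 in line 15 +D against 5.13, 4.89 and 4.90 in line 15 -D, and 4.77, 4.97 and 4.54 in the outbred control. The levels of twe overlapped in every line.

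The last comparison set each line, with its +D and -D sublines together, against the mean of the other lines. Line 5 stood highest, with 39 of 42 members above the other lines and a median difference of 0.11, against 0.04 for all probe sets. The share of all probe sets above the other lines was not taken. Members also shifted together in single arrays, so the 39 are not separate observations. Of the 42 members 2 were called, dj and Porin2, beside 4.11% of all probe sets. At an unadjusted p of 0.05 there were 14 of the 42 members, for which the share over all probe sets was not taken. The difference of dj was 1.12 ± 0.28 (SE, limma adjusted p = 0.0300).

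Porin2 had 10.36, 10.18 and 10.24 in line 5 +D against 10.05, 10.20 and 10.20 in line 5 -D, and 10.09, 9.80 and 9.86 in line 7 +D against 9.98, 10.15 and 9.90 in line 7 -D. It had 9.78, 9.79 and 9.99 in line 12 +D against 10.01, 9.93 and 9.79 in line 12 -D, 9.90, 10.04 and 10.25 in line 15 +D against 10.03, 10.13 and 10.30 in line 15 -D, and 9.97, 10.18 and 10.07 in the outbred control. Lines 5 and 12 did not overlap, with line 5 above. Porin2 was higher in line 5 by 0.22 ± 0.06 (SE, adjusted p = 0.0430) and lower in line 12 by 0.21 ± 0.06 (SE, adjusted p = 0.0472) than in the other lines.

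In line 7, 33 of 42 members were lower than in the other lines, with a median of -0.10 against -0.02 for all probe sets. Here too the share of all probe sets in that direction was not taken. A single member was called, mia, and 4.11% of all probe sets were. Its line 7 values were all below 7.18, so mia passed the filter only through its higher values in other lines. mia had 6.78, 6.76 and 6.95 in line 7 +D and 7.10, 6.76 and 6.56 in line 7 -D. The other lines had 7.23, 6.98 and 6.89 in line 5 +D against 7.31, 7.29 and 7.16 in line 5 -D, 7.05, 6.78 and 7.11 in line 12 +D against 7.12, 7.17 and 7.33 in line 12 -D, and 7.01, 7.28 and 7.33 in line 15 +D against 7.38, 7.21 and 7.12 in line 15 -D. Line 7 held the lowest value and 4 of its 6 were below all but 1 of the others, a difference of -0.33 ± 0.08 (SE, adjusted p = 0.0146).

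Line 12 had 1 member called, Porin2, beside 4.38% of all probe sets, and a median of -0.03 against -0.02. Line 15 had 0 members called, beside 2.95% of all probe sets, and a median of 0.00 against 0.01. There 6 members were at an unadjusted p of 0.05, again without a share over all probe sets. Differences of members in line 15 ran between -0.72 for dj and 0.20 for mia.

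These calls of single genes depended on few arrays. The call of dj in line 5 was lost without any of 4 line 5 arrays (+D replicates 1 and 3, -D replicates 1 and 2), and the adjusted p of Porin2 exceeded 0.05 in 16 of 27 fits with 1 array left out for line 5 and in 19 of 27 for line 12. Of the 27 such fits mia in line 7 was lost only without line 7 -D replicate 3 (-0.27, adjusted p = 0.0741). Without the 3 arrays with eggshell transcripts no member was called in line 5, with dj at 1.08 (adjusted p = 0.101).

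Over the 9 groups the members were highest in line 5. Their median deviation from the mean of the groups was 0.09 in line 5 +D and 0.08 in line 5 -D, -0.10 in line 7 +D and -0.01 in line 7 -D, -0.03 in line 12 +D and 0.00 in line 12 -D, -0.01 in line 15 +D and 0.03 in line 15 -D, and -0.09 in the outbred control. For all probe sets the same medians were 0.05, 0.04, -0.02, 0.00, -0.02, 0.00, 0.02, 0.02 and -0.10. Line 5 +D held the highest mean of 19 members, against 20.7% of all probe sets, and line 7 +D the lowest of 13, against 9.55%. The outbred control held the lowest of 16 members, against 38.6% of all probe sets.

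The rest of the pathway was read from 37 other testis genes that passed the filter. Between +D and -D sublines 0 of 37 were called, on the mean and within each line, with a median change of -0.03 on the mean. Among them, betaTub65B and Rsph4a are candidate genes of the paper, picked there for low values in most depressed sublines of a single line. In line 7 betaTub65B had 8.49, 7.92 and 6.56 in +D sublines against 8.72, 8.55 and 8.59 in -D sublines. Rsph4a had 8.75, 8.37 and 8.12 against 8.84, 8.78 and 8.56. Line 7 +D replicates 2 and 3 thus held the lowest values of both genes, beside the count of 0. Against the outbred control 8 of the 37 were higher and 2 lower in +D sublines, with a median of 0.12. In -D sublines 10 were higher and 1 lower, with a median of 0.19. The shares over all probe sets were 25.9% higher and 13.2% lower in +D, and 30.7% higher and 15.1% lower in -D sublines. Against the other lines, line 5 and line 15 had 1 called each, line 7 had 2 and line 12 had 4, beside 4.11%, 2.95%, 4.11% and 4.38% of all probe sets.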

How the data were processed

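RNA was measured on Affymetrix arrays from 27 pools of whole males, 3 for each of the 8 groups of line and level and 3 for the outbred control, with groups and replicate numbers taken from the sample labels. The deposited values are log2 expression, made by the authors with RMA (background adjustment, quantile normalization and probe set summary). The submitters' processing notes name Partek 7.3.3 and affy as tools. Quantile normalization gives the probe values of every array the same distribution, so a change that runs through most transcripts can be reduced. After the probe set summary the array medians still differed, between 6.32 and 6.54. A second deposited table with the 24 inbred arrays, normalized on their own, served as an alternative and differed by 0.0348 on average.

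Array control probe sets (183 of 18952) were left out. The methods kept 9133 probe sets by present calls, which were not used here, and the 9133 with the highest maximum over the arrays stood in for them. Gene names came from the platform annotation, in which 13647 probe sets have 1 gene, 402 several and 4720 none. Group means were fitted with limma 3.58.1 in R 4.3.3 (lmFit and eBayes with a trend), with 1 spread shared by the 9 groups and an adjusted p threshold of 0.05 (Benjamini-Hochberg over 9133). On simulated data with 200 planted changes of 1 log2 unit, the fit recovered 97.5% for the mean of the lines and 77.5% for the interaction. The simulation gave each probe set 1 SD and independent errors, so it does not cover smaller changes or arrays that shift together. Array data have no read depth, and the number of arrays sets the precision.

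The members, gene lists and tests were chosen with earlier results of these data known. Full values were given for the members with the largest changes among those called, up to 4 in a direction, and for the widest range in each role. Mst57Da was left out of the other testis genes as an accessory gland transcript. Several of the other axoneme genes are also used in ciliated neurons. Alternatives were other filters, centring, weights, sample codes, arrays left out and a replicate block.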

Additional observations from a re-analysis of the deposited data

How the results depend on the processing

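Between +D and -D sublines the members' count was 0 under all alternatives that left no group with a single array. This held on the mean of the lines, within lines and for the interaction, and leaving out each array in turn gave 0 to 0. The median change then ran from -0.07 to 0.00 on the mean, from -0.01 to 0.06 in line 5, from -0.13 to -0.02 in line 7, from -0.07 to -0.01 in line 12 and from -0.17 to 0.05 in line 15. Replicate numbers did not pair the arrays, since deviations correlated at -0.039 within and 0.020 across numbers and 2 of 27 arrays correlated best with their own number.

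Counts against the control and between lines were less stable, and the cause was not tested. In -D sublines against the control (7 members), the count was 4 with no filter (of 49), 1 after median centring and 19 with array weights. It was 4 with the replicate block and 0 with sample codes as a covariate. In +D sublines (5 members) it was 11 with array weights, 3 without the 3 eggshell arrays and 2 in the first range of codes. In line 5 (2 members) it was 1 with no filter, 1 after median centring, 6 with array weights, 1 with the replicate block and 0 with the code covariate, without the 3 arrays or without the 5 with yolk or eggshell transcripts. In line 7 (1 member) it was 0 without the 5 arrays. In line 12 (1 member) it was 0 with no filter, median centring, the replicate block, the code covariate, the table of 24 arrays or without the 5 arrays. The replicate block changed no other count.

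With 1 array left out, counts ran from 0 to 7 in +D and from 0 to 10 in -D sublines against the control, both 0 without outbred control replicate 1 and highest without line 15 +D replicate 1. They ran from 0 to 7 in line 5, from 0 to 1 in line 7, from 0 to 1 in line 12 and from 0 to 1 in line 15. Median changes ran from 0.02 to 0.12 in +D and from 0.05 to 0.19 in -D sublines against the control, from 0.09 to 0.13 in line 5, from -0.12 to -0.06 in line 7, from -0.06 to -0.01 in line 12 and from -0.06 to 0.05 in line 15. Among the arrays of the first range of codes, chosen as a setting after seeing the data, mia in -D sublines against the control stood at 0.00, just below 0. That fit averaged lines 7 and 15 only, with line 7 -D replicate 3 as the only -D array of line 7.

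With 3 arrays per group, the error came from all groups together, so it is too small for one that varied more, such as line 15 +D. All -D arrays of lines 5 and 12 carry later sample codes, some of them joined to an earlier number. In line 12 this split of codes and the levels cannot be told apart.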
